A study of Mus musculus with 10 samples.

Results

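Interferon-stimulated genes (ISGs) are the genes that cells switch on when they sense interferon, and their proteins block viruses at almost every step of infection. The 37 ISGs described here were taken by symbol, and all 37 had a row among the 45906 gene rows of the deposited count table. No measured value is part of that rule. The A53T group was 5 male C57BL/6 mice injected with an AAV1/2 virus carrying A53T haSyn, human α-synuclein with a mutation known from inherited Parkinson disease. The EV group was 5 male C57BL/6 mice given the AAV1/2 virus as empty vector, so both groups had received a viral vector and no uninjected group is analysed here. Mice were 10 to 12 weeks old at injection and 26 to 28 weeks old at RNA isolation, 16 weeks later. The labels do not name the promoter that drives the transgene. Immune cells were prepared from substantia nigra and striatum with collagenase and a 30% to 70% Percoll gradient, with no cell sort named, and each library was made from 0.5 ng of total RNA of the mixture. In such bulk RNA, fewer cells of a type and less RNA per cell cannot be told apart.

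Type I interferons bind the receptor pair Ifnar1 and Ifnar2, the kinases Jak1 and Tyk2 phosphorylate Stat2, and Stat2 joins Irf9 in ISGF3, the complex that binds the interferon-stimulated response element (ISRE) in ISG promoters. Type II interferon, Ifng, acts on promoters through the gamma-activated site (GAS). In brain, microglia and endothelial cells keep a low level of ISG expression in the absence of infection, and viral vectors or RNA and DNA in the wrong compartment can raise it. The 37 genes were ordered by what their proteins do, from signalling through sensors, effectors of RNA and nucleotide metabolism, the IFIT family, membrane and capsid restriction factors, and ubiquitin-like and ADP-ribose enzymes to other induced proteins.

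Promoter sequences are shown first because the ISRE is a feature that the rule did not use. RefSeq promoter windows of 300 bases (build GRCm38.p6, 250 before and 50 after a start site) were matched by symbol for 27 of the 37 genes, in 32 windows, and 17 genes had a window at the start site of the count table. An ISRE-like motif was counted as 2 copies of GAAA with any 2 bases between them, on either strand, and matches may overlap. At least 1 was present in 15 of the 27 genes (55.6%), against 3.99% of the 27025 genes in the whole promoter table. The GAS-like motif TTC, any 3 bases, GAA reads the same on both strands, and it was present in 7 of the 27 genes (25.9%) against 9.55% of all genes. The 250 bases upstream of the start are printed below 5′ to 3′ on the gene's own strand, with ISRE-like letters in capitals, for Isg15 (chr4:156200819-156201068, minus strand), Ifit1 (chr19:34640639-34640888, plus strand), Rsad2 (chr12:26456453-26456702, minus strand), Trim30a (chr7:104465194-104465443, minus strand) and Dtx3l (chr16:35939028-35939277, minus strand). The first 3 are classical ISGs, and Trim30a and Dtx3l are members with a called slope on the microglial gene Tmem119.
Isg15: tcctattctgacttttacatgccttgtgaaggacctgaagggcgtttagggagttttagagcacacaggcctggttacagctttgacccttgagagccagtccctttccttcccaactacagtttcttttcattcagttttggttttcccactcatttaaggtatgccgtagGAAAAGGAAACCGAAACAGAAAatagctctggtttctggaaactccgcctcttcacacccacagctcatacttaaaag
Ifit1: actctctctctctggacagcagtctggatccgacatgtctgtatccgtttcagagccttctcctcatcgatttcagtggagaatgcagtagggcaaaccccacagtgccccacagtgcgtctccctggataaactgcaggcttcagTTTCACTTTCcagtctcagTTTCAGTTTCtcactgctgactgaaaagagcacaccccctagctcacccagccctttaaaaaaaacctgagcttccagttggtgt
Rsad2: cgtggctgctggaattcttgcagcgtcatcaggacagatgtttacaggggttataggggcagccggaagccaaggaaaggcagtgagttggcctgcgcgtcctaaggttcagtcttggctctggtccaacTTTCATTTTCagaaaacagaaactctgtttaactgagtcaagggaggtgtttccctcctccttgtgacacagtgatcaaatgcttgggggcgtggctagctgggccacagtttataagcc
Trim30a: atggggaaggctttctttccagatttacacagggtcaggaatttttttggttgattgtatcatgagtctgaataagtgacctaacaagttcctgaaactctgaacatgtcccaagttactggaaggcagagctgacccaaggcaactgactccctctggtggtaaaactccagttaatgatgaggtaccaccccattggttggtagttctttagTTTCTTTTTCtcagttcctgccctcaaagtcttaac
Dtx3l: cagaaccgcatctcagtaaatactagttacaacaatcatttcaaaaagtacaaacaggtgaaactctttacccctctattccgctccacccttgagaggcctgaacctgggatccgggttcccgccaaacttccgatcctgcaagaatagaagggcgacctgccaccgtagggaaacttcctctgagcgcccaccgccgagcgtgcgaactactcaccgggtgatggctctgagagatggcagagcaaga
Isg15 carried 3 overlapping matches that start between 78 and 66 bases before the start, Ifit1 carried 2, and Rsad2 and Trim30a had 1 each. No match lay in the Dtx3l window, which says only that these letters are not in it.

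Before the members, the libraries themselves differed. They held 14323389 to 20698259 counts in A53T and 12386305 to 21780086 in EV, and a count of 0 allows a level of up to 3 reads, or 0.137 to 0.238 CPM (counts per 1000000 of the scaled library, the unit of all levels here). The transgene had 1520, 2223, 10, 1397 and 1217 reads in A53T replicates 1 to 5 and 0, 1, 0, 0 and 0 in EV replicates 1 to 5, so A53T replicate 3 held far fewer transgene reads than the other A53T libraries. Summed over 10 homeostatic microglia markers, the libraries ranged from 360 to 7051 CPM in A53T and from 415 to 2890 CPM in EV, and 8 neuronal markers were present at 314 to 3085 CPM in A53T and 1577 to 3085 CPM in EV, so the preparations were mixtures of microglial and other brain RNA. Brain endothelial markers summed to 185 to 421 CPM in A53T, and to 209 to 257 CPM in EV apart from EV replicate 3 at 656 CPM. That library also had the highest sum of T and NK cell markers (12.0 CPM, against at most 7.54 elsewhere) and 1767 reads of the salivary gland gene Bpifa2. Bpifa2 reads numbered 477, 2114, 0, 37 and 0 in A53T replicates 1 to 5 and 972, 1727, 1767, 15 and 24 in EV replicates 1 to 5. The part of these differences in the results that follow was not tested beyond the values given with and without single libraries.

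All 37 ISGs were detected at low to moderate levels 16 weeks after vector delivery, in both groups. They collected 54864 reads over the 10 libraries, 27 had a read in every library, and 35 passed edgeR's filter on low counts, the exceptions being Oas3 and Ifi27l2a. Summed over the 37 genes, the level was 451, 176, 399, 494 and 159.8 CPM in A53T replicates 1 to 5 and 170.2, 164, 419, 243 and 308 CPM in EV replicates 1 to 5. A53T replicates 1, 3 and 4 and EV replicate 3 were the high libraries, A53T replicates 2 and 5 were as low as EV replicates 1 and 2, and the groups overlapped. Per kilobase of exon, mean levels ran from 0.0718 CPM per kb for Oas3, the large oligoadenylate synthetase, to 6.52 CPM per kb for Samhd1, a phosphohydrolase that depletes the nucleotides viruses need. Irf9 (5.13), Gbp3 (4.74), Ifitm3 (4.06) and Stat2 (3.98 CPM per kb) came next. The coefficient of variation over the 10 libraries had a median of 65.0% in the 35 tested members, against 41.2% in all 17409 genes tested. The members were not matched for level with the other genes, and this coefficient also depends on level.

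**Figure D1:**
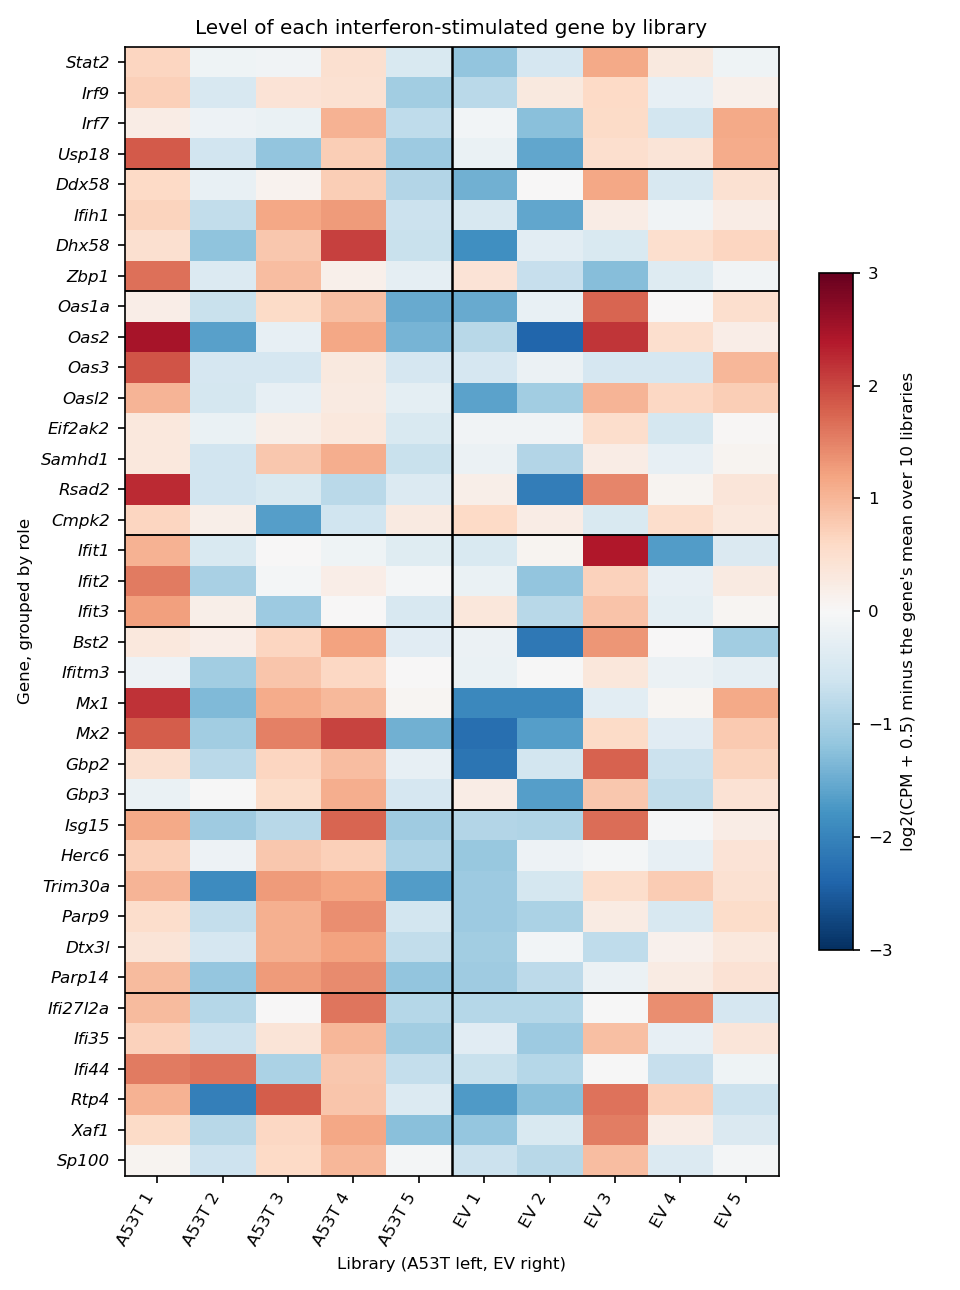
Level of each of the 37 genes (rows, grouped by role) in each library (columns, A53T on the left and EV on the right). Values are log2 of CPM plus 0.5, minus the gene's mean over the 10 libraries. Colours set each gene against its own mean and do not show its abundance. Rsad2 and Ifit2 stand out in A53T replicate 1, and A53T replicate 4 holds the highest level of 12 genes.

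The signalling group had reads in every library, though Usp18 had only 2 in EV replicate 2, under the floor of 3 reads. Stat2, an ISGF3 subunit of type I and III interferon signalling (chromosome 10, 128270498 to 128292853), had 25.4, 14.7, 14.9, 22.8 and 11.6 CPM in A53T replicates 1 to 5 and 6.78, 11.2, 36.0, 19.8 and 14.8 CPM in EV replicates 1 to 5. The DNA-binding subunit Irf9 (chromosome 14, 55603985 to 55610030) had 21.2, 9.03, 17.1, 17.6 and 5.91 CPM in A53T and 7.12, 15.6, 19.5, 10.7 and 14.1 CPM in EV. Stat2 was highest in EV replicate 3 and Irf9 in A53T replicate 1, and for both the groups overlapped over most of their range. Irf7, the factor that amplifies interferon-α production, ranged over 1.24 to 5.60 CPM in A53T and 0.736 to 5.97 CPM in EV. Usp18, the protease that removes ISG15 and damps the receptor, ranged over 0.319 to 6.07 CPM in A53T and 0.123 to 3.49 CPM in EV.

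Among the sensors of foreign nucleic acid, the RNA helicase Ddx58, which encodes RIG-I (chromosome 4, 40203777 to 40239825), had 14.6, 8.09, 10.3, 16.3 and 4.98 CPM in A53T and 3.18, 9.63, 21.9, 6.69 and 13.4 CPM in EV. Ifih1, which encodes MDA5, the sensor of long double-stranded RNA (chromosome 2, 62595618 to 62646255), had 13.3, 4.72, 19.0, 20.6 and 5.10 CPM in A53T and 5.74, 2.45, 9.66, 7.62 and 9.75 CPM in EV. Ifih1 was higher in A53T replicates 1, 3 and 4 than in any EV library, while Ddx58 was highest in EV replicate 3. Dhx58, which encodes LGP2, their regulator without a signalling domain (chromosome 11, 100694884 to 100704271), had 1.97, 0.270, 2.64, 6.89 and 0.622 CPM in A53T and 0, 0.920, 0.792, 2.02 and 2.29 CPM in EV. Zbp1, a sensor of left-handed nucleic acid that can start necroptosis, ranged over 0.405 to 3.27 CPM in A53T and 0 to 1.11 CPM in EV.

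Samhd1 (chromosome 2, 157097534 to 157135096) was the most abundant effector, at 35.2, 18.5, 49.4, 60.3 and 17.5 CPM in A53T and 24.7, 15.1, 33.0, 23.6 and 29.7 CPM in EV. Eif2ak2, which encodes PKR, the kinase that halts translation on double-stranded RNA (chromosome 17, 78850504 to 78882572), had a narrower spread, with 23.7, 16.5, 21.6, 23.9 and 13.7 CPM in A53T and 17.6, 17.8, 27.8, 13.1 and 19.5 CPM in EV. The oligoadenylate synthetases, which activate RNase L, were lower and uneven. Oas2 reached 13.9 CPM in A53T replicate 1 and 10.9 CPM in EV replicate 3 and otherwise stayed at or under 5.32 CPM. Oas1a ranged over 0 to 2.17 CPM in A53T and 0 to 4.28 CPM in EV, and Oas3 over 0 to 2.13 CPM in A53T and 0 to 0.908 CPM in EV. Oasl2, a relative of these enzymes, had 2.29 to 7.74 CPM in A53T and 0.830 to 7.68 CPM in EV. The groups overlapped for each of these synthetases. Rsad2, which encodes viperin, a radical enzyme that makes a chain-terminating nucleotide, had 14.3, 1.62, 1.78, 1.29 and 1.87 CPM in A53T and 3.04, 0.245, 8.24, 2.85 and 3.54 CPM in EV. A53T replicate 1 stood far above the other 4 A53T libraries for it. Its neighbour Cmpk2, a mitochondrial nucleotide kinase, had 1.50 to 9.24 CPM in A53T and 4.04 to 8.99 CPM in EV, and was lowest in A53T replicate 3.

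The IFIT genes lie side by side on chromosome 19 and encode proteins that bind foreign RNA or partner those that do. Ifit2 (chromosome 19, 34550550 to 34576534) had 35.4, 5.80, 11.3, 13.5 and 11.2 CPM in A53T and 10.2, 4.91, 19.4, 9.85 and 14.3 CPM in EV. Ifit3 (chromosome 19, 34583119 to 34588982) had 22.3, 10.5, 4.10, 9.43 and 6.47 CPM in A53T and 12.0, 5.03, 17.1, 7.52 and 9.75 CPM in EV. Both were highest in A53T replicate 1, with EV replicate 3 the highest of the EV libraries. Ifit1, whose promoter is printed above, had 6.59, 2.02, 2.96, 2.64 and 2.18 CPM in A53T and 2.01, 3.13, 17.7, 0.571 and 2.05 CPM in EV, and its EV maximum stood alone in replicate 3. Ifit1 and Ifit3 have near-identical copies or close paralogs in the mouse genome, as do Oas1a, Trim30a and the Gbp genes, and the treatment of reads that match several copies is not stated, so these values are uncertain.

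The guanylate-binding proteins coat the vacuoles of pathogens. Among restriction factors Gbp3 had the highest mean level per length, 4.74 CPM per kb, while Gbp2 (2.15 CPM per kb) lay under Ifitm3 (4.06 CPM per kb) and Bst2 (2.71 CPM per kb). Gbp3 (chromosome 3, 142560016 to 142573213) had 11.4, 13.0, 19.7, 28.8 and 9.21 CPM in A53T and 15.5, 3.86, 23.4, 7.68 and 18.1 CPM in EV. Gbp2 (chromosome 3, 142620663 to 142638008) had 5.81, 2.09, 6.56, 8.05 and 3.30 CPM in A53T and 0.484, 2.58, 14.8, 2.39 and 6.64 CPM in EV, where replicate 3 was the highest of all 10 libraries. The dynamin-like GTPase genes Mx1 and Mx2 included libraries at or near 0, with Mx1 at 8.10, 0.270, 3.65, 3.24 and 1.49 CPM in A53T and 0, 0, 1.03, 1.50 and 3.73 CPM in EV. Mx2 had 9.03, 0.809, 7.29, 10.6 and 0.498 CPM in A53T and 0.0692, 0.368, 3.56, 1.66 and 4.20 CPM in EV. Mx2 was higher in A53T replicates 1, 3 and 4 than in any EV library. Bst2, which encodes tetherin, the anchor that holds budding virus at the cell surface, had 1.24 to 4.62 CPM in A53T and 0 to 5.07 CPM in EV. Ifitm3, which blocks fusion in endosomes, had 0.944 to 4.74 CPM in A53T and 1.96 to 3.25 CPM in EV.

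The ubiquitin-like and ADP-ribose enzymes were the role group with the most reads, 15047 over the 10 libraries. Parp14, an ADP-ribosyltransferase linked to macrophage activation (chromosome 16, 35831892 to 35871518), had 45.1, 10.2, 57.1, 63.2 and 10.0 CPM in A53T and 10.9, 13.3, 20.6, 27.8 and 31.8 CPM in EV. Its partners in the same chromosome 16 cluster are Dtx3l, a ubiquitin ligase (chromosome 16, 35926515 to 35939027), with 16.7, 8.76, 26.7, 29.9 and 7.34 CPM in A53T and 5.88, 11.8, 7.21, 13.9 and 15.7 CPM in EV, and Parp9 (chromosome 16, 35938470 to 35972621), which binds it, with 9.97, 3.91, 14.7, 18.6 and 4.48 CPM in A53T and 2.91, 3.25, 8.16, 4.67 and 10.1 CPM in EV. All 3 were highest in A53T replicates 3 and 4, which were also highest in Tmem119. Dtx3l and Parp9 overlap on opposite strands, and the strand setting of the counting is unknown here, so part of their reads may be shared. Trim30a, a ubiquitin ligase of the mouse TRIM family (chromosome 7, 104409025 to 104465193), had 23.3, 2.70, 28.0, 26.4 and 3.17 CPM in A53T and 5.05, 7.67, 16.4, 19.4 and 15.8 CPM in EV. Herc6, the ligase that attaches ISG15 in mice, had 5.16 to 18.2 CPM in A53T and 4.36 to 13.8 CPM in EV. Isg15 itself, the ubiquitin-like modifier, stayed low at 1.82, 0, 0.0911, 3.01 and 0 CPM in A53T and 0.0692, 0.0613, 2.85, 0.519 and 0.717 CPM in EV.

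Of the remaining members, Sp100, a nuclear body protein (chromosome 1, 85649948 to 85709998), had 14.5, 8.70, 20.8, 27.6 and 12.9 CPM in A53T and 8.51, 7.42, 26.5, 10.2 and 13.0 CPM in EV. Xaf1, an antagonist of the apoptosis inhibitor XIAP (chromosome 11, 72301461 to 72313733), had 9.14, 3.17, 9.52, 14.1 and 2.24 CPM in A53T and 2.42, 4.23, 18.5, 7.05 and 4.30 CPM in EV. Both were high in A53T replicate 4 and EV replicate 3. Ifi44 (chromosome 3, 151730922 to 151749910) had 3.11, 3.30, 0.137, 1.66 and 0.249 CPM in A53T and 0.277, 0.184, 0.713, 0.259 and 0.621 CPM in EV, with A53T replicates 1, 2 and 4 above every EV library and A53T replicates 3 and 5 within or under the EV range. Ifi35 ranged over 1.43 to 7.35 CPM in A53T and 1.35 to 6.89 CPM in EV, the receptor-transporting protein Rtp4 over 0 to 6.70 CPM in A53T and 0.138 to 5.86 CPM in EV, and Ifi27l2a over 0 to 2.27 CPM in A53T and 0 to 1.87 CPM in EV.

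High levels were concentrated in a few libraries. The highest level of a gene was found in A53T replicate 4 for 12 members, in A53T replicate 1 for 11, in EV replicate 3 for 8, in A53T replicate 3 for 4, and in A53T replicate 2 and EV replicate 5 for 1 each. The role groups differed in which library was highest. The IFIT genes summed to 64.2, 18.3, 18.4, 25.6 and 19.8 CPM in A53T replicates 1 to 5 and to 24.1, 13.1, 54.3, 17.9 and 26.1 CPM in EV replicates 1 to 5, so only A53T replicate 1 and EV replicate 3 stood out. The ubiquitin and ADP-ribose enzymes summed to 114, 34.7, 145, 158 and 30.2 CPM in A53T and to 29.1, 45.1, 65.0, 74.7 and 87.9 CPM in EV, with A53T replicates 3, 4 and 1 on top. Microglia markers summed to 2688, 360.1, 6139.6, 7051 and 1094 CPM in A53T and 415, 1240.5, 872, 2237 and 2889.6 CPM in EV, again with A53T replicates 3 and 4 on top. Endothelial markers summed to 278, 261, 294, 421 and 185 CPM in A53T and 255, 209, 656, 215 and 257 CPM in EV.

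**Figure D2:**
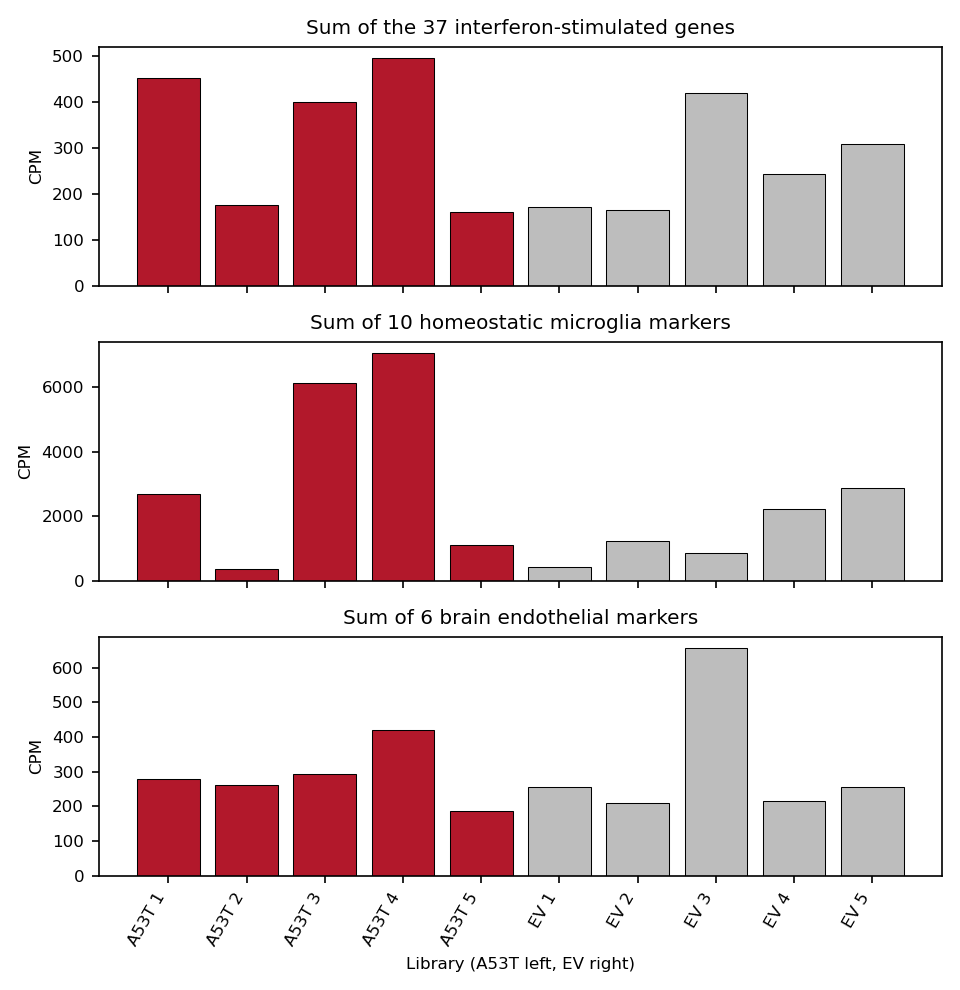
Summed CPM in each library (bars, A53T left and EV right) of the 37 interferon-stimulated genes, of 10 homeostatic microglia markers and of 6 brain endothelial markers. EV replicate 3 is high for the ISGs (419 CPM) and highest for endothelial markers (656 CPM), and low for microglia markers (872 CPM).

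Whether ISG levels differed with α-synuclein expression was the comparison of A53T with EV, fitted with edgeR's quasi-likelihood test over all genes and adjusted by Benjamini-Hochberg. No member passed an adjusted p of 0.05. Over all 17409 genes tested 0 passed as well (0.00%), with 378 at an unadjusted p under 0.05. The edgeR test over all 10 libraries thus did not call the transgene row aSyn either. DESeq2 called 1 row, the transgene aSyn, and limma-voom and limma on the rlog values called 0. Fitted fold changes of the members lay above 0 for 28 of 35, against 52.8% of all genes, with a median log2 fold change of 0.29 against 0.027 over all genes. All 10 homeostatic microglia markers lay above 0 in the same fit (median 1.18), and 2 of 6 endothelial markers did (median -0.14). In limma-voom with sample weights, 34 of 35 members lay above 0 (median 0.77, against 52.6% of all genes). Members no longer lay mostly above 0 with Tmem119 as a covariate, where 15 of 35 did (median -0.049). Of all genes 46.1% did in that fit (median -0.027). With Snap25 as a covariate 14 of 35 members did (median -0.082), against 47.2% of all genes (median -0.017). No member had groups that did not overlap, while 0.431% of all genes did. The adjusted p of the members ranged from 0.957 to 0.998.

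Ifi44 had the largest log2 fold change of the members, 2.03 ± 0.89 SE, and was the only member at an unadjusted p under 0.05, with an edgeR adjusted p of 0.957. It was above every EV library in 3 of 5 A53T libraries. Its counts were low, 186 reads in all. EV libraries had 3 to 13 reads and A53T replicates 3 and 5 had 3 and 4, near the floor of 3 reads. Ifih1 followed by p, at 0.83 ± 0.49 SE with an edgeR adjusted p of 0.957, then Dtx3l at 0.71 ± 0.43 SE. The enzymes of the chromosome 16 cluster had like estimates, 0.83 ± 0.54 SE for Parp14 and 0.83 ± 0.50 SE for Parp9. Among the abundant members Samhd1 was at 0.52 ± 0.36 SE, Trim30a at 0.38 ± 0.64 SE, Ifit2 at 0.40 ± 0.48 SE, Sp100 at 0.37 ± 0.40 SE and Gbp3 at 0.26 ± 0.46 SE. For Trim30a, Ifit2, Sp100 and Gbp3 the standard error exceeded the estimate. Irf9 (0.082 ± 0.37 SE), Xaf1 (0.072 ± 0.61 SE), Eif2ak2 (0.053 ± 0.24 SE), Ifit3 (0.041 ± 0.45 SE), Stat2 (0.019 ± 0.41 SE), Ddx58 (-0.010 ± 0.48 SE) and Gbp2 (-0.052 ± 0.71 SE) lay closer to 0 than their standard error. Dhx58 was at 1.03 ± 0.98 SE. By role, all 6 ubiquitin and ADP-ribose enzymes had estimates above 0 (median 0.63), as did 5 of 6 restriction factors (median 0.44), 4 of 7 tested nucleotide effectors (median 0.053) and 2 of 3 IFIT genes (median 0.041).

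**Figure D3:**
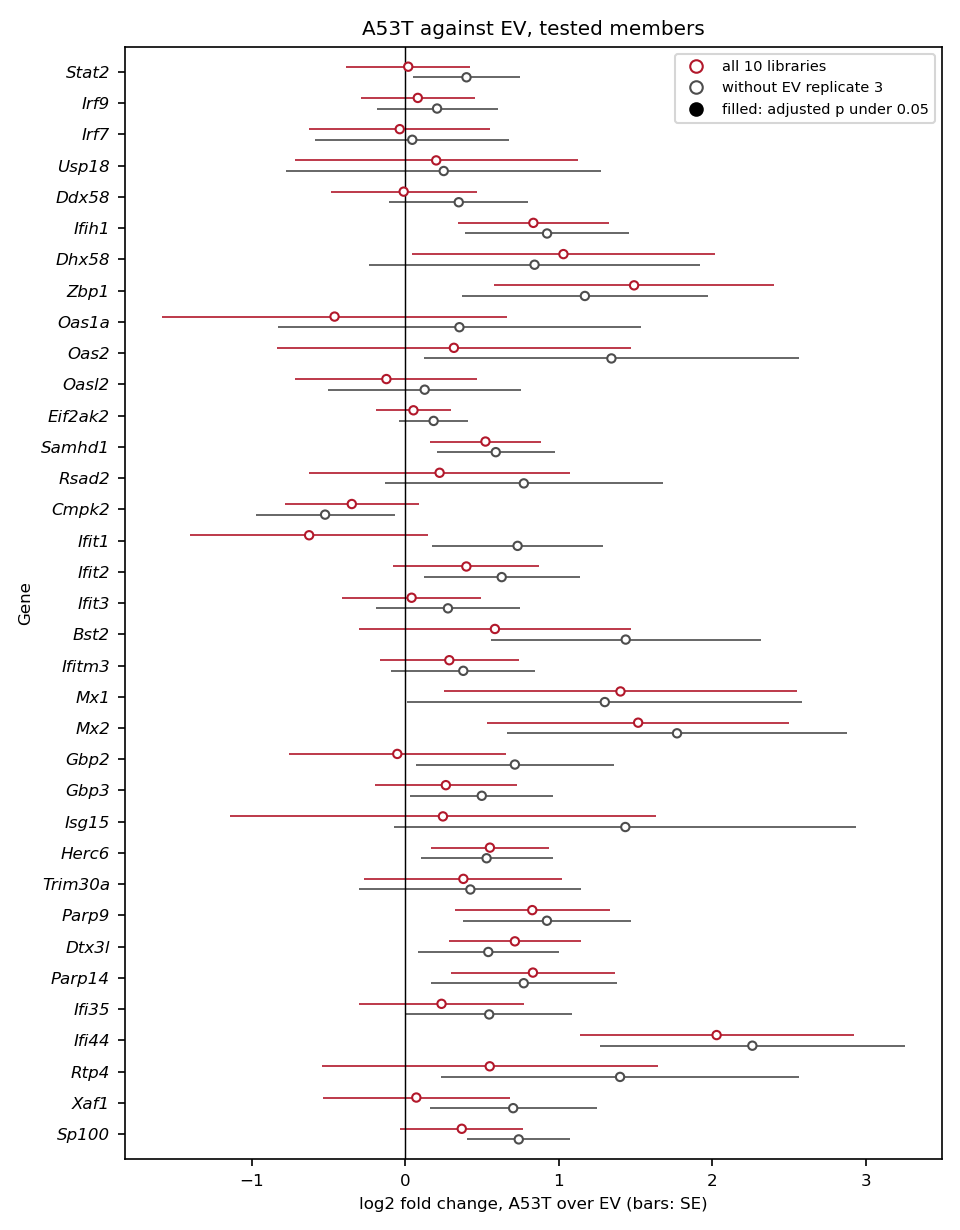
Log2 fold change, A53T over EV, of each tested member (points) with its standard error (bars), over all 10 libraries (red) and without EV replicate 3 (grey). Most points lie right of 0 and none is filled, since no adjusted p was under 0.05 in either fit; Ifit1 stands at 0.73 without EV replicate 3 and at -0.63 with it.

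The comparison moved when EV replicate 3 was left out. Among EV libraries it had the highest sum of the members (419 CPM), so leaving it out favours higher fold changes. Without it 35 of the 36 members then tested had a fold change above 0, against 51.2% of 17923 genes, and the median was 0.61 in place of 0.29. Still no member passed the threshold, and only 1 was at an unadjusted edgeR p under 0.05. The direction of the members rested on few mice. Without A53T replicate 1 only 18 of 35 members had a fold change above 0, against 54.1% of all genes. Without EV replicate 2 it was also 18 of 35, against 48.3% of all genes. These were the lowest counts with 1 library left out, which ranged from 18 to 35. With A53T replicates 3 and 4, the libraries richest in microglial RNA, both left out, 16 of 35 were above 0 and the median was -0.033. Of all genes 49.1% were then above 0. Leaving out only A53T replicate 3, which held few transgene reads, left 28 of 35 members above 0. Their median was 0.28, and 52.4% of all genes were above 0. In that fit edgeR called the transgene row aSyn (adjusted p = 5.56e-06) and no member.

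None of the tested genes on the lists of the interferon pathway outside the members passed the edgeR test between A53T and EV. Of 20 interferon ligand genes none had enough reads to be tested, and together they held 79 reads over the 10 libraries. Ifng, the type II interferon of T and NK cells, had 5, 0, 0, 17 and 3 reads in A53T replicates 1 to 5 and 0, 0, 12, 0 and 9 in EV replicates 1 to 5. Ifnb1, the first type I interferon made on infection, had 2 reads, both in EV replicate 5. Of 98 pathway genes outside the members, 15 had no read and 74 were tested, with 59 of them at a fold change above 0 (median 0.46) and 0 called in either direction. The receptor kinase Jak1 was at 149.7 ± 45.2 CPM in A53T and 109 ± 22.2 CPM in EV (SD, n = 5 each), and its relative Jak2 at 64.1 ± 14.4 CPM in A53T and 69.9 ± 10.3 CPM in EV (SD, n = 5 each). Irf8, a factor of microglia and other myeloid cells, was at 73.7 ± 61.6 CPM in A53T and 31.5 ± 18.7 CPM in EV (SD, n = 5 each). Irf5, a factor downstream of Toll-like receptors, was at 69.3 ± 60.6 CPM in A53T and 32.9 ± 23.2 CPM in EV (SD, n = 5 each). Among inhibitors of the signal, the feedback inhibitor Socs3 was at 110.2 ± 99.7 CPM in A53T and 50.3 ± 44.9 CPM in EV (SD, n = 5 each), and the phosphatase Ptpn11 was at 175 ± 80.4 CPM in A53T and 191 ± 49.0 CPM in EV (SD, n = 5 each). For Irf8, Irf5 and Socs3 the SD in A53T exceeded the mean in EV. The RNA editor Adar, which keeps cellular RNA from being sensed, was at 65.8 ± 11.3 CPM in A53T and 80.1 ± 7.38 CPM in EV (SD, n = 5 each), and the kinase Tbk1, which activates Irf3, was at 42.2 ± 11.9 CPM in A53T and 31.5 ± 5.54 CPM in EV (SD, n = 5 each). The interferon-γ induced GTPase Gbp7 was at 21.9 ± 11.4 CPM in A53T and 15.3 ± 8.11 CPM in EV (SD, n = 5 each), and Gbp9 at 12.9 ± 7.11 CPM in A53T and 12.0 ± 9.39 CPM in EV (SD, n = 5 each). Of further ISGs, Znfx1 was at 115 ± 7.83 CPM in A53T and 109 ± 14.9 CPM in EV (SD, n = 5 each), and Ly6e at 52.0 ± 39.8 CPM in A53T and 31.4 ± 7.79 CPM in EV (SD, n = 5 each). None of these genes passed the edgeR test (lowest adjusted p = 0.957).

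Levels were then set against Tmem119, a transmembrane protein made in brain by microglia, because the libraries differed in their share of microglial RNA. Tmem119 itself had 92.4, 9.24, 189, 206 and 32.5 CPM in A53T replicates 1 to 5 and 10.7, 40.7, 13.7, 63.0 and 89.5 CPM in EV replicates 1 to 5, with a log2 fold change of 1.28 ± 0.78 SE and an edgeR adjusted p of 0.957. Per read of Tmem119, Parp14 had 0.488, 1.10, 0.302, 0.306 and 0.308 reads in A53T and 1.01, 0.326, 1.50, 0.441 and 0.355 reads in EV. A53T replicates 3, 4 and 5 and EV replicate 2 had nearly equal ratios of Parp14, and the high ratios belonged to the libraries lowest in Tmem119. Samhd1 had 0.381, 2.01, 0.261, 0.293 and 0.539 reads per Tmem119 read in A53T and 2.30, 0.371, 2.40, 0.375 and 0.332 in EV, and Ifit2 had 0.383, 0.628, 0.0600, 0.0655 and 0.344 in A53T and 0.948, 0.121, 1.42, 0.156 and 0.160 in EV. For each of them the groups overlapped, and the ratio was highest in EV replicate 3 among all 10 libraries.

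In a limma fit of the log2 ratio to Tmem119 over 17408 genes, 0 passed the threshold (0.00%) and 0 of 35 members did, with 80 genes and 0 members at an unadjusted p under 0.05. Members lay above 0 in 5 of 35 cases with a median log2 difference of -0.73, while 4.18% of all genes lay above 0 with a median of -0.97. Without EV replicate 3 it was 14 of 36 with a median of -0.17, against 10.1% of all genes and a median of -0.66. With A53T replicates 3 and 4 both left out the direction turned, with 21 of 35 above 0 and a median of 0.084, against 62.1% of all genes and a median of 0.097. The members ranged from -1.52 for Cmpk2 to 0.89 for Mx1, and their adjusted p from 0.676 to 0.930. Parp9 was at -0.27 ± 0.97 SE, Ifih1 at -0.28 ± 0.99 SE and Dhx58 at -0.12 ± 0.99 SE. Dtx3l was at -0.41 ± 0.94 SE, Parp14 at -0.47 ± 0.93 SE, Gbp2 at -0.48 ± 1.05 SE, Sp100 at -0.59 ± 1.02 SE, Samhd1 at -0.60 ± 0.99 SE, Gbp3 at -0.61 ± 1.07 SE and Ifit2 at -0.73 ± 1.04 SE. Further below lay Stat2 (-0.82 ± 1.04 SE), Ddx58 (-0.86 ± 1.02 SE), Xaf1 (-0.88 ± 1.03 SE), Eif2ak2 (-0.94 ± 1.04 SE), Irf9 (-0.99 ± 1.00 SE), Trim30a (-1.07 ± 0.93 SE) and Ifit3 (-1.07 ± 1.12 SE). Ifi44 was at 0.22 ± 1.28 SE.

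**Figure D4:**
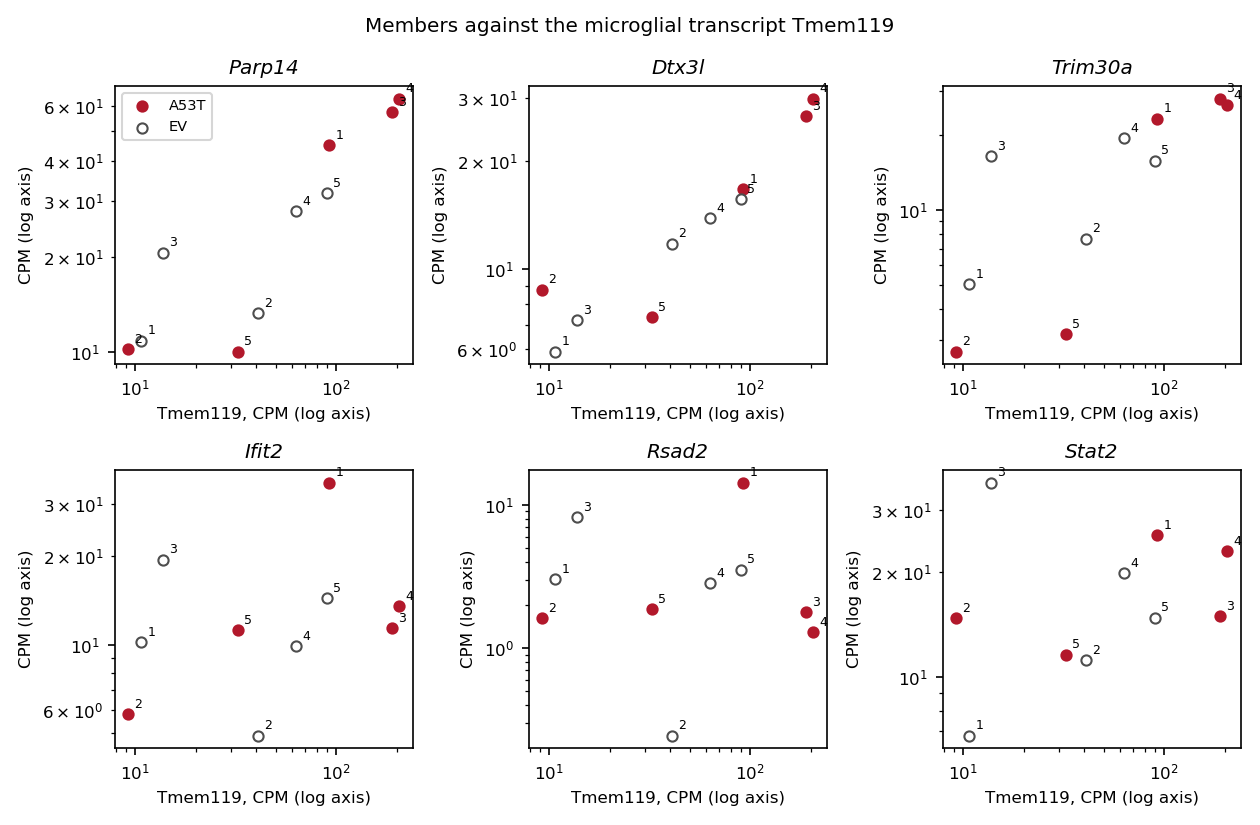
CPM of selected members (vertical axes) against CPM of Tmem119 (horizontal axes), both on log scales, with a point per library, A53T as filled red circles and EV as open grey circles. In both groups Parp14 and Dtx3l are highest in the libraries highest in Tmem119, and EV replicate 3 lies above the other low-Tmem119 libraries for Ifit2, Rsad2 and Stat2.

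How each member moved with microglial RNA within groups was measured as an edgeR slope, the log2 change of the gene per log2 unit of Tmem119, with group in the model. 5 of 35 members passed an adjusted p of 0.05, all with a positive slope, or 14.3% against 13.0% of 17408 genes with a positive call, so the members' share was near the background. 12.7% of genes had a negative call and no member did. Dtx3l had a slope of 0.43 ± 0.074 SE with an edgeR adjusted p of 0.00193, and Parp14 a slope of 0.55 ± 0.11 SE (edgeR adjusted p = 0.00420). Dhx58 followed at 0.99 ± 0.25 SE (edgeR adjusted p = 0.0134), Trim30a at 0.64 ± 0.16 SE (edgeR adjusted p = 0.0152) and Parp9 at 0.40 ± 0.13 SE (edgeR adjusted p = 0.0399). 4 of these 5 are ubiquitin or ADP-ribose enzymes, 3 of them share a cluster on chromosome 16, and Dhx58 is the regulator LGP2. The IFIT genes had no call, with slopes of 0.13 ± 0.18 SE for Ifit2 and -0.13 ± 0.16 SE for Ifit3, and a median of -0.13 over the 3. Median slope was 0.23 over the members and 0.0094 over all genes. Stat2 (0.053 ± 0.14 SE), Eif2ak2 (0.044 ± 0.081 SE) and Gbp3 (0.076 ± 0.15 SE) had slopes smaller than their standard error, while Samhd1 (0.24 ± 0.10 SE, edgeR adjusted p = 0.103) and Ifih1 (0.35 ± 0.14 SE, edgeR adjusted p = 0.0864) missed the threshold. Irf9 stood at 0.20 ± 0.12 SE, Ddx58 at 0.14 ± 0.16 SE, Gbp2 at 0.19 ± 0.25 SE, Sp100 at 0.14 ± 0.13 SE, Xaf1 at 0.23 ± 0.22 SE and Ifi44 at -0.18 ± 0.28 SE.

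The call count moved with single libraries. EV replicate 3 was high in the members (419 CPM) but low in Tmem119, so leaving it out favours higher slopes. Without EV replicate 3, 17 of 36 members had a positive call, against 18.0% of 17922 genes, and the median slope was 0.35 over the members and 0.029 over all genes. The 17 were Irf9, Ifih1, Dhx58, Samhd1, Mx1, Mx2, Gbp2, Isg15, Herc6, Trim30a, Parp9, Dtx3l, Parp14, Ifi27l2a, Rtp4, Xaf1 and Sp100. Parp14 then had a slope of 0.61, Ifih1 of 0.42, Samhd1 of 0.29, Gbp2 of 0.58 and Xaf1 of 0.48. Without A53T replicate 2 instead, 1 member was called and 5.82% of all genes had a positive call. Without A53T replicate 4, 3 members were called, against 8.81% of all genes with a positive call. Parp9 lost its call whichever A53T library was left out, and also without EV replicate 1 or 5. Its edgeR adjusted p was then 0.0579 to 0.214. Dhx58 lost its call without A53T replicate 2 or 4, and Trim30a and Parp14 lost theirs without A53T replicate 2. Dtx3l kept its call with each single library left out. With A53T replicates 3 and 4 both left out no member was called, against 3.33% of all genes. With no group term 10 of 35 members had a positive call, against 15.8% of all genes, and on P2ry12, another microglial gene, 11 of 35 did, against 16.8% of all genes.

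**Figure D5:**
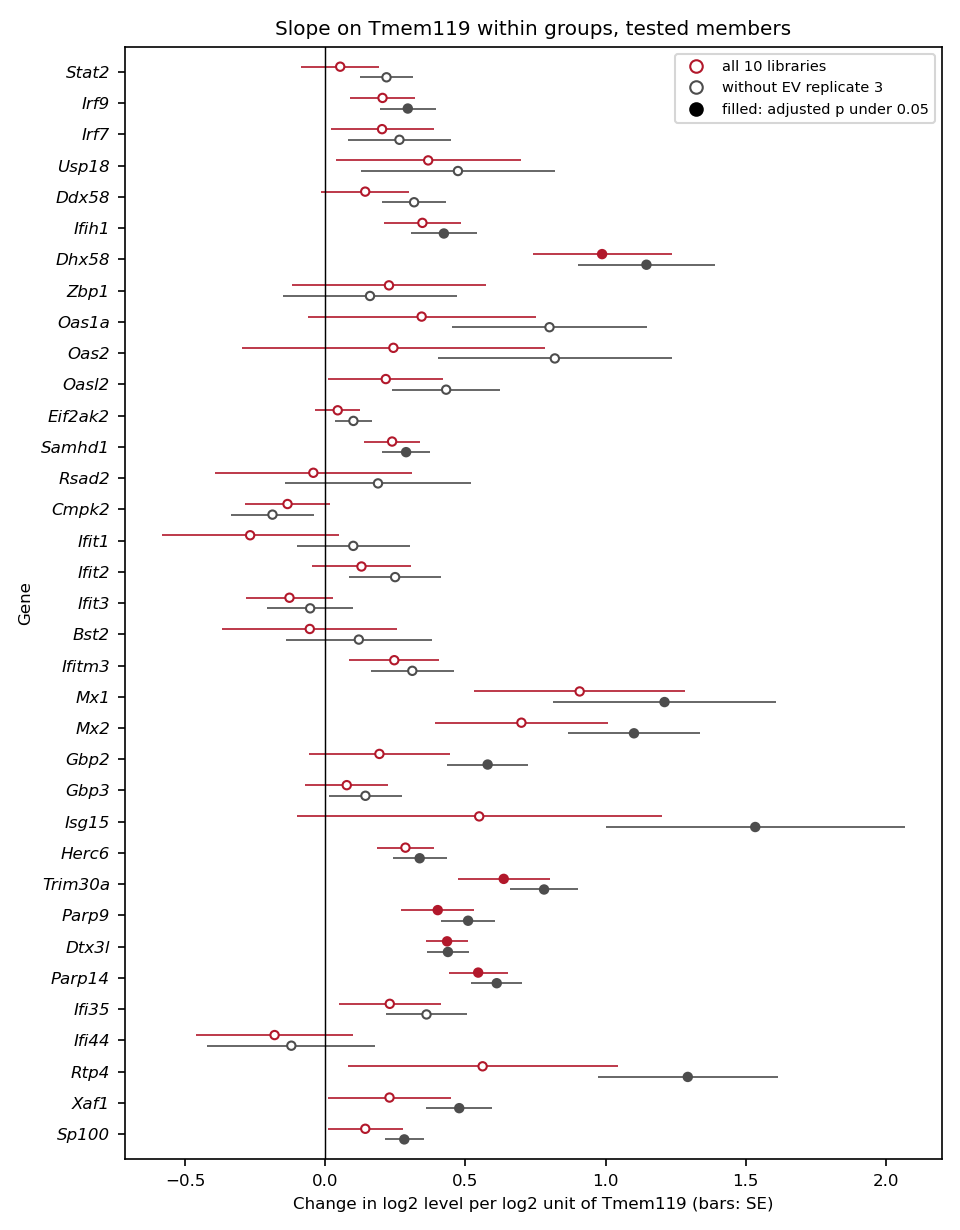
Slope of each tested member on log2 Tmem119 (points) with its standard error (bars), over all 10 libraries and without EV replicate 3, with filled points where the adjusted p was under 0.05. 5 points are filled over all libraries and 17 without EV replicate 3.

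The same fit on other cell types' transcripts gave other values. On Snap25, a synaptic fusion protein of neurons, 7 of 35 members had a negative call, against 13.5% of genes. These were Ifih1, Samhd1, Dhx58, Trim30a, Parp9, Dtx3l and Parp14, which include the 5 called on Tmem119. Parp14 had a slope on Snap25 of -0.87 ± 0.19 SE with an edgeR adjusted p of 0.00392, and Samhd1 had -0.55 ± 0.12 SE (edgeR adjusted p = 0.00428). Snap25 and Tmem119 are shares of the same library totals and move against each other, so these are not separate observations. On Cldn5, the tight junction protein of brain endothelium, 0 members and 0 genes passed (0.00%), with 5123 genes and 16 members at an unadjusted p under 0.05. 34 of 35 members had a slope above 0 with a median of 1.42, against 0.10 over all genes. All 10 microglia markers also had a slope on Cldn5 above 0, with a median of 1.62, as did the 5 other endothelial markers, with a median of 1.17. The lowest edgeR adjusted p of a member on Cldn5 was 0.0687. Without EV replicate 3, 4 members had a positive call on Cldn5, against 3.52% of all genes. Cldn5 had 18.4, 14.4, 24.3, 29.3 and 10.6 CPM in A53T replicates 1 to 5 and 20.5, 12.6, 25.5, 19.2 and 19.1 CPM in EV replicates 1 to 5, a narrower range than Tmem119. It was highest in A53T replicate 4, while the 5 other endothelial markers were highest in EV replicate 3. Cldn5 alone therefore does not stand for the endothelial sum of EV replicate 3, and slopes on the other markers were not fitted.

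With Tmem119 and Cldn5 in the same model, a fit chosen after the data were seen, 7 members had a positive call on Cldn5 against 3.54% of genes, and 4 had a positive call on Tmem119 against 10.7% of genes. The 7 were Ifih1, Samhd1, Gbp3, Trim30a, Parp14, Ifi35 and Xaf1, and the 4 were Dhx58, Trim30a, Dtx3l and Parp14. Samhd1 had a slope on Cldn5 of 1.13 ± 0.17 SE (edgeR adjusted p = 0.0146), and Gbp3 of 1.59 ± 0.36 SE (edgeR adjusted p = 0.0206). For Dtx3l the Cldn5 slope was 0.30 ± 0.27 SE (edgeR adjusted p = 0.528), and its Tmem119 slope 0.40. Which cells the ISG reads came from was not tested. Of the tested pathway genes, 31 of 74 had a positive call and 1 a negative call on Tmem119 alone, against 13.0% and 12.7% of all genes. The positive calls included 6 of 8 receptors and kinases, 3 of 6 STAT and IRF factors, 3 of 6 inhibitors of the signal, 6 of 14 sensor adaptors and kinases, 11 of 28 further ISGs and 2 of 12 interferon-γ induced GTPases, the last near the share of all genes. The negative call was Ptpn11 at -0.26 ± 0.076 SE, and Irf8 (0.77 ± 0.078 SE), Irf5 (0.91 ± 0.064 SE) and Socs3 (1.10 ± 0.094 SE) were among the positive calls, whereas Znfx1 stood at 0.0023 ± 0.049 SE.

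Called slopes on Tmem119 were found among members with and without the ISRE-like motif of the printed promoters. Of the tested members with a promoter window, 1 of 14 with the motif had a called slope and 1 of 12 without it did. The median coefficient of variation over the libraries was 63.7% with the motif and 56.8% without it. These are counts over few genes and were not tested.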

How the data were processed

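Total RNA libraries (SMARTer stranded kit, 0.5 ng input, 5 and 15 PCR cycles, 75 nt reads from 1 end, per the labels' protocols) of 5 A53T and 5 EV mice were analysed from 2 tables. The authors deposited raw read counts per gene, not normalized, with combined exon length as another column, and log2 values from the regularized logarithm (rlog) of those counts. Per the submitters' processing notes, the genome was mm10 (GRCm38.p6) and the tools were featureCounts 1.6.4, STAR 2.7.2b, cutadapt 2.5 and DESeq2 1.24.0, with settings not given. Reads carry no molecular identifiers in the counts, so floors of 3 reads cover counting error only.

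In R 4.3.3, counts were scaled by TMM, filtered with edgeR's default filter and tested over all genes with edgeR 4.0.16 (quasi-likelihood F test, robust), with Benjamini-Hochberg adjustment and a threshold of 0.05. CPM are counts per 1000000 of the TMM-scaled library, and CPM per kb divide by the deposited exon length. Ratios to Tmem119 were log2 CPM differences (prior count 2) tested with limma 3.58.1. Slopes were edgeR coefficients of log2 CPM of Tmem119, Snap25 or Cldn5 beside a group term. Standard errors are each estimate divided by the root of F or by the moderated statistic. The scripts were tested on simulated data. Alternatives were DESeq2 1.42.0, limma-voom, limma on rlog values, other size factors and filters, a replicate block, covariates, other denominators and leaving out libraries; 3 were added after seeing the data. Replicates are 5 mice per condition, per the series' design text, and p-values measure the spread between these mice. No 2 libraries held identical counts.

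The 37 genes, the pathway and marker lists and the tests were chosen with earlier results of these data known. Levels are given for every member. Fold changes, ratios and slopes are given singly for the 2 tested members of highest mean CPM per role, the 3 of smallest p in A53T against EV and any member past the threshold, and for up to 2 genes of highest mean CPM per pathway list. A gene outside the members that the rule also named is not reported here. Same replicate numbers in A53T and EV did not mark shared mice.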

Additional observations from a re-analysis of the deposited data

Results flagged for a closer look

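A sample was picked out where its gap to the nearest value of its group, over the group's range, passed Dixon's 95% critical value for 5 samples. Over the 37 genes and both groups 74 groups of 5 were examined and 9 were picked out, where chance gives about 1 in 20, or 3.7. That number holds for separate groups of normally distributed values. CPM cannot be negative, the genes share the same libraries, and all 9 were the highest of their group, so 3.7 is only a guide. A53T replicate 1 was picked out for 4 genes, with 14.3 CPM of Rsad2 against 1.29 to 1.87 CPM in the other A53T libraries, 35.4 CPM of Ifit2, 6.59 CPM of Ifit1 and 2.13 CPM of Oas3. EV replicate 3 was picked out for 3, with 17.7 CPM of Ifit1, 18.5 CPM of Xaf1 and 2.85 CPM of Isg15. EV replicate 5 had 0.908 CPM of Oas3, and EV replicate 4 had 1.87 CPM of Ifi27l2a, both the highest of their group. Beside these values, A53T replicate 1 held 2688 CPM of microglia markers and 278 CPM of endothelial markers, inside the range of the other A53T libraries, and EV replicate 3 held the highest endothelial sum of all libraries, 656 CPM. The part of cell composition in these values was not tested.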

How the results depend on the processing

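Fold changes near 0 changed sign easily, and calls of members in A53T against EV stayed at 0 in every alternative run. The medians of the members were 0.29 for A53T over EV and -0.73 relative to Tmem119 in the fits reported, and over the alternatives the first ranged from -0.082 to 0.77 and the second from -1.25 to 0.084. The cause of the changes listed here was not tested, and wherever a single gene was called it was the transgene row aSyn. With DESeq2, the log2 fold change had 1 gene called and was -0.021 for Stat2. With limma-voom and sample weights, the log2 fold change had 34 members above 0 and was 0.47 for Ddx58 and 0.78 for Gbp2. In that fit 4 members and 1202 genes were at an unadjusted limma p under 0.05. With limma on the rlog values, the log2 fold change was -0.0095 for Irf9, 0.057 for Ddx58, -0.062 for Ifit3, 0.22 for Gbp2 and -0.026 for Trim30a. With RLE size factors, the log2 fold change was -0.019 for Stat2. With no filter on low counts, the log2 fold change was 0.0011 for Ddx58. With the replicate number as a block, the log2 fold change had 1 gene called and was 0.10 for Ddx58, -0.034 for Ifit3, 0.41 for Gbp2 and -0.042 for Trim30a. Under the same setting, the log2 ratio had 1 gene called. With Tmem119 as a covariate, the log2 fold change had 1 gene called and 15 members above 0 and was -0.049 for Stat2, -0.20 for Irf9, -0.0060 for Eif2ak2, -0.0089 for Parp14, -0.75 for Trim30a, -0.39 for Xaf1 and -0.25 for Dhx58. With Snap25 as a covariate, the log2 fold change had 1 gene called and 14 members above 0 and was -0.10 for Stat2, -0.17 for Irf9, -0.047 for Samhd1, -0.069 for Eif2ak2, -0.17 for Gbp3, -0.023 for Parp14, -0.58 for Trim30a, -0.082 for Sp100, -0.60 for Xaf1 and -0.42 for Dhx58. With a prior count of 0.5, the log2 ratio was 0.22 for Dhx58. With P2ry12 as denominator, the log2 ratio had 8 members above 0 and was 0.070 for Ifih1, 0.23 for Dhx58 and 0.083 for Parp9. With 10 microglial markers as denominator, the log2 ratio was 0.083 for Dhx58. With at least 1 CPM in 5 libraries, the log2 ratio had 3 members above 0. With no group term, the slope on Tmem119 had 10 members called, against 15.8% of all genes with a positive call. With P2ry12 in place of Tmem119, the slope on P2ry12 had 11 members called, against 16.8% of all genes with a positive call. With Cldn5 added to the model, the slope on Tmem119 was -0.040 for Stat2, -0.018 for Eif2ak2 and -0.12 for Gbp3. With Tmem119 added to the model, the slope on Cldn5 had 1603 genes called and 7 members called. With both A53T replicates 3 and 4 left out, the log2 fold change had 1 gene called and 16 members above 0 and was -0.032 for Stat2, -0.15 for Irf9, -0.083 for Samhd1, -0.091 for Eif2ak2, -0.29 for Gbp3, -0.40 for Trim30a, -0.12 for Sp100, -0.58 for Xaf1 and -0.33 for Dhx58. Under the same setting, the log2 ratio had 1 gene called and 21 members above 0 and was 0.18 for Stat2, 0.19 for Ifih1, 0.39 for Ifit2, 0.36 for Ifit3, 0.036 for Gbp3, 0.17 for Gbp2, 0.084 for Sp100, 0.089 for Dtx3l and 0.19 for Parp9. Under the same setting, the slope on Tmem119 had 716 genes called and 0 members called and was -0.0085 for Eif2ak2, -0.15 for Gbp3 and -0.028 for Sp100. Leaving out 1 library at a time gave the log2 fold change these ranges, with members above 0 18 to 35, Stat2 -0.24 to 0.40, Irf9 -0.13 to 0.23, Eif2ak2 -0.055 to 0.18, Ifit2 -0.16 to 0.63, Ifit3 -0.43 to 0.28, Xaf1 -0.27 to 0.70, Ddx58 -0.30 to 0.35, Gbp2 -0.40 to 0.71, genes called 0 to 1 and Gbp3 -0.036 to 0.50. Leaving out 1 library at a time gave the log2 ratio these ranges, with Ifi44 -0.87 to 1.14, members above 0 2 to 14, genes called 0 to 1, Dhx58 -0.47 to 0.20, Ifih1 -0.70 to 0.17, Gbp2 -0.90 to 0.37, Sp100 -1.07 to 0.0091 and Parp9 -0.68 to 0.20. Leaving out 1 library at a time gave the slope on Tmem119 these ranges, with genes called 1355 to 6024, members called 1 to 17, Eif2ak2 -0.0021 to 0.10, Ifit2 -0.087 to 0.25, Sp100 -0.00023 to 0.28, Ifi44 -0.29 to 0.083, Gbp3 -0.014 to 0.14 and Stat2 -0.023 to 0.22. Without EV replicate 3, the slope on Cldn5 had 1907 genes called and 4 members called, all positive, against 3.52% of all genes with a positive call. Same-numbered libraries had correlations of their deviations from the group means between -0.367 and 0.309. Of the libraries, 0 of 5 A53T and 1 of 5 EV correlated best with their own number. These values gave no sign of pairing by number, but cannot exclude that same-numbered mice shared a preparation batch. The replicate block left 0 members called, 28 above 0 and a median of 0.26. Oas3 had no read in 6 libraries and Ifi27l2a in 4, among them for both genes the library of highest total count in each group. These were A53T replicate 2 and EV replicate 1. Their TMM-scaled sizes, which the CPM use, were 14831800 and 14456600, in the lower part of a range of 12624400 to 21944800.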

Other observations

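Ligand reads were few, and several ligand genes were read in a single library, while Ifng was read in libraries of both groups. Of the interferon-α and related genes, Ifna9 (7 reads), Ifna16 (14 reads), Ifnab (1 read) and Ifnk (9 reads) were read in A53T replicate 5 alone, the library with the lowest ISG sum (159.8 CPM). The T cell receptor gene Trac had 1.56, 0.0674, 0.820, 1.94 and 0 CPM in A53T replicates 1 to 5 and 0.138, 0.0613, 6.57, 0 and 0.287 CPM in EV replicates 1 to 5, and the NK cell receptor gene Ncr1 had 1.04, 0, 0.0456, 1.66 and 0.187 CPM in A53T and 0, 0.123, 4.91, 0.0519 and 0 CPM in EV. EV replicate 3 was highest for both, and Ifng was read there too (12 reads). These genes have too few reads for a test between groups.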
